A study of Mus musculus with 10 samples.

Results

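The genes described here are 40 genes of the lysosome in microglia, the resident macrophages of the brain. They were taken by gene name from a count table of 40789 genes, with cathepsins left out. They comprise 14 hydrolases, 3 luminal helper proteins, 7 membrane proteins and 16 subunits and accessory proteins of the proton pump. RNA was sequenced from microglia of 10 female mice aged 2 to 3 months, of the strain C57BL6/J. All mice had the genotype CX3CR1+/egfp, in which 1 copy of the fractalkine receptor gene carries a green fluorescent reporter, so the controls lack that copy too. Of these, 5 mice were given lipopolysaccharide (LPS), a component of the bacterial outer membrane that activates innate immunity, at 4 mg/kg into the peritoneum. The other 5 mice were given saline, and their libraries are titled PBS. The cortex was taken 24 h after the injection and its brightest green cells were sorted, so the gate can hold any cell with a strong reporter signal. Each library came from 1 mouse and from RNA amplified from a low input.

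Lysosomes are acidic organelles that break down proteins, glycans and lipids taken up by phagocytosis or delivered by autophagy, a central task of microglia as phagocytes. Soluble hydrolases work in the lumen with the help of activator and transfer proteins. Heavily glycosylated membrane proteins line the organelle, and the vacuolar ATPase, built of a membrane sector (V0) and a cytosolic sector (V1), pumps in the protons that the hydrolases need. Inherited loss of many of these genes causes lysosomal storage disease, often with damage to the brain.

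Total counts were 12928007 to 15332121 per library in LPS mice and 11577295 to 15274421 in saline mice. The summed level of 10 microglia markers was 10674 to 28256 CPM in LPS mice and 52114 to 64218 CPM in saline mice, and 7 of the 10 were called lower in LPS mice. CPM are counts divided by library size after TMM scaling. Cx3cr1, the gene that carries the reporter, was among the 7, with 644 to 2124 CPM in LPS mice and 3112 to 5104 CPM in saline mice. Whether the gate held the same cells in both groups was not tested. P2ry12, the largest part of the sum in saline mice, averaged 2419 CPM in LPS mice and 21585 CPM in saline mice. Tmem119, Aif1 and Olfml3 were not called. LPS mouse 4 had the lowest microglia marker sum of all 10 mice. Summed markers of monocytes were 78.1 to 220 CPM in LPS mice and 14.4 to 22.4 CPM in saline mice, with 3 of 9 genes called higher (Ms4a4c, Fn1 and F13a1), 2 called lower (Ccr2 and Spn) and Ly6c2 at 0 to 0.634 CPM in LPS mice. Neutrophil markers summed to 251 to 525 CPM in LPS mice and 556 to 773 CPM in saline mice, and Csf3r, called lower, held most of that sum. Cxcr2, the other neutrophil marker tested, was called higher, with 1.34 to 7.99 CPM in LPS mice and 0 to 0.427 CPM in saline mice. The other neutrophil markers were too low to test. S100a8 had 0, 0.230, 2.02, 6.27 and 9.08 CPM in LPS mice 1 to 5, and at most 0.0849 CPM in saline mice. Mmp8 had 0, 0, 0.233, 4.50 and 7.83 CPM in LPS mice 1 to 5, and at most 0.187 CPM in saline mice. Ngp, Retnlg and S100a9 peaked in LPS mouse 4, at 5.70, 4.06 and 3.55 CPM. Ly6g, Camp and Mmp9 stayed below 1 CPM in every library. Border macrophage markers summed to 722 to 1869 CPM in LPS mice and 583 to 877 CPM in saline mice, mostly from Stab1. Of the 5 tested border macrophage markers, 3 were called higher and 0 lower. Siglec1 had 10.8 to 17.3 CPM in LPS mice and 0.142 to 0.933 CPM in saline mice, and Cbr2 had 2.28 to 20.2 CPM in LPS mice and 0.170 to 1.78 CPM in saline mice, without overlap in either. Stab1 was the third, while Cd163 and Lyve1 stayed below 1 CPM in every library. Mrc1 was not called and averaged 7.32 CPM in LPS mice and 10.3 CPM in saline mice (log2 fold change -0.49, edgeR adjusted p = 0.102). Ms4a7 was not called either, with 1.98 CPM on average in LPS mice and 1.75 CPM in saline mice (log2 fold change 0.20, edgeR adjusted p = 0.791). Markers of T and NK cells, neurons and astrocytes summed to at most 2.85, 6.21 and 9.68 CPM in LPS mice and 2.83, 9.33 and 9.76 CPM in saline mice. Endothelial and pericyte markers summed to 4.77 to 10.9 CPM in LPS mice and 50.2 to 73.1 CPM in saline mice, mostly from Pecam1, with Cldn5 at 0 in every library. Oligodendrocyte markers summed to 44.5 to 70.9 CPM in LPS mice and 51.8 to 84.3 CPM in saline mice, and B cell markers, mostly Cd79b, to 73.5 to 143 CPM in LPS mice and 74.7 to 110 CPM in saline mice. The part of these markers in the results below was not tested. In bulk RNA from sorted cells, fewer cells of a type and less RNA per cell cannot be told apart.

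LPS and saline mice differed in both directions across the lysosomal genes. Of the 39 tested members, 12 were called higher in LPS mice and 10 lower, while 17 passed no threshold. A call means an adjusted p below 0.05 in edgeR's quasi-likelihood test over 13793 genes, and the same fit called 22.4% of all genes higher, 22.5% lower and 45.0% in either direction. The members' shares were 30.8% higher, 25.6% lower and 56.4% in either direction. In 15 members the mice of the groups did not overlap, 10 with LPS mice higher and 5 with LPS mice lower, against 29.8% of all genes in either direction, 14.1% higher and 15.7% lower. The median log2 fold change of LPS over saline was 0.19 over the members and 0.0014 over all genes. The pump held 7 of the 12 members that rose, and the membrane proteins held none of them. Together the members took 3.40% to 4.02% of all counts in LPS mice and 3.78% to 4.17% in saline mice. The ranges overlapped only through LPS mouse 1, at 4.02%, and the other LPS mice lay below every saline mouse.

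**Figure D1:**
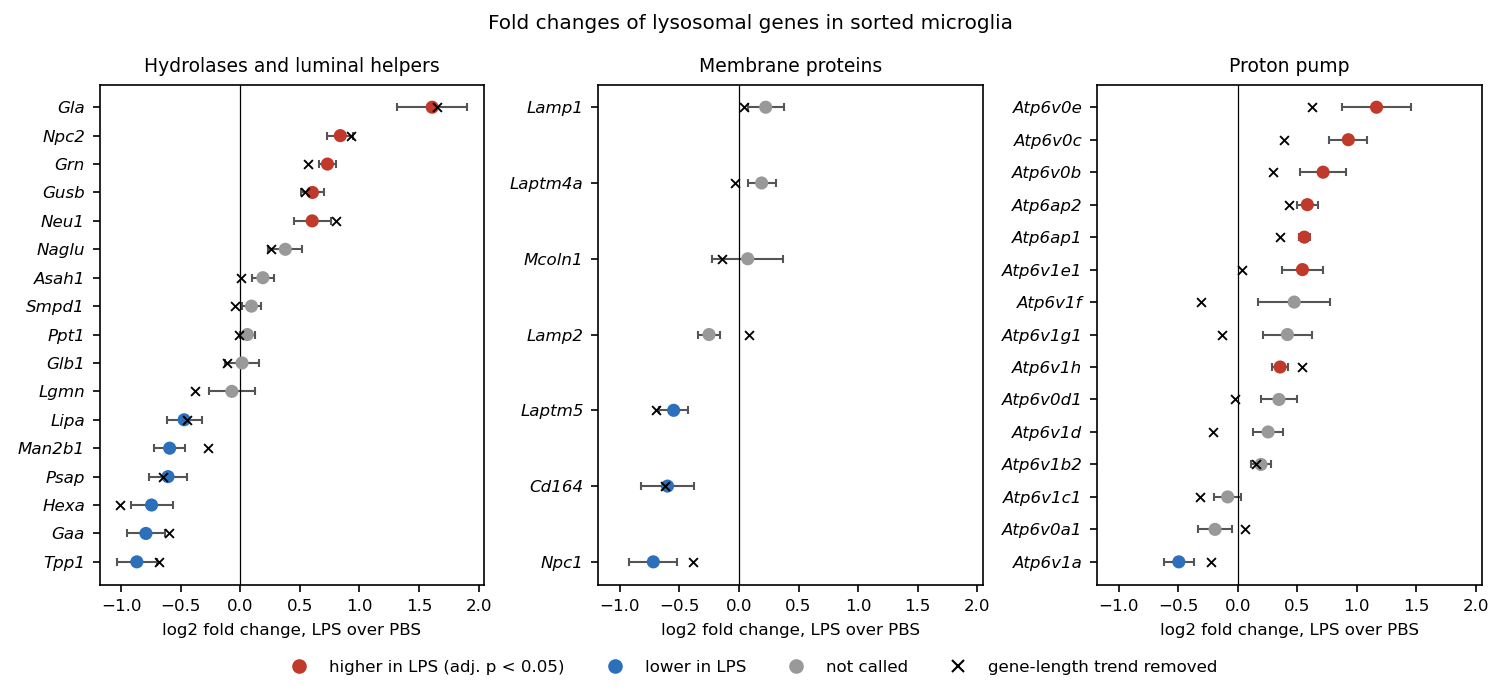
Log2 fold changes of LPS over saline (x axis) for the 39 tested lysosomal genes, with bars for the standard error over 5 and 5 mice and crosses for the value once the trend over gene length was taken out of each library. Hydrolases and helpers run from -0.87 (Tpp1) to 1.61 (Gla), called membrane proteins lie left of 0, and most pump subunits lie right of 0.

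Many lysosomal promoters carry the CLEAR motif, an extended E-box bound by the transcription factors Tfeb, Tfe3 and Mitf. Promoters of 250 bases before to 50 bases after the start site were found for 33 of the 39 tested members in RefSeq (GRCm38.p6), and both strands were searched. The letters TCACGTG were found in 12 of the 33 (36.4%), and in 7.08% of the 9785 tested genes with a promoter in the table. The shorter CACGTG, which lies within the other motifs searched, was found in the same number of members and in 11.9% of tested genes. The longer GTCACGTG was found in 9 members (27.3%) and 4.83% of tested genes. By direction, TCACGTG was found in 3 of 11 members that rose, 3 of 9 that fell and 6 of 13 that were not called. The windows below, on the gene's strand with the motif and its matching flanks in capitals, show members that rose (Gla, Atp6v0b), fell (Gaa, Cd164, Atp6v1a) or were not called (Lamp1, Mcoln1).
Gla, chrX:134601171-134601255, minus strand: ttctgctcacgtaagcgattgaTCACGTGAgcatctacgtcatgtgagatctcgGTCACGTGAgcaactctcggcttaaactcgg
Atp6v0b, chr4:117887320-117887389, minus strand: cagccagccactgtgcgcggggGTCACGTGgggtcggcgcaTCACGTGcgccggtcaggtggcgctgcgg
Gaa, chr11:119267800-119267850, plus strand: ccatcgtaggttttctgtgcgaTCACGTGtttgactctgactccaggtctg
Cd164, chr10:41519390-41519442, plus strand: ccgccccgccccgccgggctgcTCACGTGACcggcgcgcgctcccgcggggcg
Atp6v1a, chr16:44139362-44139413, minus strand: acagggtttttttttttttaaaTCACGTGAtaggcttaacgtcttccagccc
Lamp1, chr8:13159077-13159173, plus strand: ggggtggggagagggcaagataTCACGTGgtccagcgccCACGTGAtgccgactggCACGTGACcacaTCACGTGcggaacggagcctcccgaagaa
Mcoln1, chr8:3500424-3500503, plus strand: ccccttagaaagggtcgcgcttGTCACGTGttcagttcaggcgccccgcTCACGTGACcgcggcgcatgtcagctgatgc
The Lamp1 window holds 4 motifs within 62 bases before the start site, and the Gla motifs begin 228 and 196 bases before it. The Atp6v1a window lies inside the gene coordinates given below. Its motif begins 132 bases before a start site that also lies inside them. A match is a description of these letters and not a bound site.

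Among the 14 hydrolases, 3 were called higher in LPS mice, 5 lower and 6 in neither direction, with a median log2 fold change of 0.04. Gla (Entrez gene 11605; chrX:134588169-134601005, GRCm38.p6) encodes alpha-galactosidase A, which removes galactose from globotriaosylceramide. It had 14.5, 8.83, 14.6, 21.2 and 23.0 CPM in LPS mice, against 5.14, 4.92, 7.27, 3.62 and 5.98 CPM in saline mice. Every LPS mouse lay above every saline mouse. Gla was 3.05-fold higher in LPS mice (log2 fold change 1.61 ± 0.29 (SE), edgeR adjusted p = 0.000289), yet had the lowest level per length of all tested members, 5.47 ± 1.88 RPKM in LPS mice and 1.77 ± 0.465 RPKM in saline mice (SD, n = 5 each). Gusb (110006; chr5:129989011-130003049), beta-glucuronidase, which degrades glycosaminoglycans, had 663, 538, 577, 525 and 565 CPM in LPS mice, against 340, 429, 384, 407 and 325 CPM in saline mice. These groups did not overlap either (log2 fold change 0.61 ± 0.10 (SE), edgeR adjusted p = 0.00195). Neu1 (18010; chr17:34931253-34937297), the sialidase that trims terminal sialic acids, had 67.9, 59.1, 68.0, 102 and 77.3 CPM in LPS mice, against 51.0, 44.8, 47.3, 59.4 and 44.1 CPM in saline mice. LPS mouse 2 fell just below saline mouse 4, and the call held (log2 fold change 0.60 ± 0.15 (SE), edgeR adjusted p = 0.00679).

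Tpp1 (12751; chr7:105744811-105752282), a tripeptidyl peptidase whose loss causes a neuronal ceroid lipofuscinosis, led the hydrolases that fell. It had 761, 675, 630, 474 and 486 CPM in LPS mice, against 1046, 1358, 1110, 1122 and 888 CPM in saline mice. No LPS mouse reached the lowest saline mouse (log2 fold change -0.87 ± 0.17 (SE), edgeR adjusted p = 0.000817). Gaa (14387; chr11:119267963-119285458), the acid alpha-glucosidase that degrades glycogen, had 71.4, 68.8, 65.8, 71.7 and 55.3 CPM in LPS mice, against 82.0, 131, 108, 148 and 109 CPM in saline mice. Its groups were again apart, with a narrow spread in LPS mice (log2 fold change -0.79 ± 0.16 (SE), edgeR adjusted p = 0.00113). Hexa (15211; chr9:59539540-59565109), the alpha subunit of beta-hexosaminidase, which degrades GM2 ganglioside, had 1051, 824, 850, 517 and 732 CPM in LPS mice, against 1212, 1273, 1404, 1291 and 1481 CPM in saline mice. It fell without overlap (log2 fold change -0.74 ± 0.18 (SE), edgeR adjusted p = 0.00274). Of the Hexa exon bases, 12.8% are shared with Tmem202 on the other strand, and the sources used here do not say whether counting used strand.

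Man2b1 (17159; chr8:85082730-85098739), a lysosomal alpha-mannosidase, had 953, 1134, 1057, 933 and 740 CPM in LPS mice, against 1358, 1587, 1418, 1647 and 1255 CPM in saline mice. The groups did not overlap (log2 fold change -0.59 ± 0.13 (SE), edgeR adjusted p = 0.00436), but once the trend over gene length described below was taken out the call ended (at a log2 fold change of -0.27, with an edgeR adjusted p = 0.0985). Lipa, the acid lipase that frees cholesterol and fatty acids from lipoprotein esters, averaged 275 ± 47.4 CPM in LPS mice and 381 ± 51.8 CPM in saline mice (SD, n = 5 each). It was called lower (log2 fold change -0.47 ± 0.15 (SE), edgeR adjusted p = 0.0214), with overlapping groups, and lost the call without LPS mouse 5, saline mouse 2 or saline mouse 3 (edgeR adjusted p of up to 0.0640 over these fits).

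The 6 hydrolases without a call had log2 fold changes between -0.07 and 0.38. Lgmn (19141; chr12:102394082-102439728), the asparaginyl endopeptidase legumain, had 10114, 6707, 5963, 4663 and 5878 CPM in LPS mice, against 6310, 6882, 6614, 8265 and 6932 CPM in saline mice. LPS mice spread on both sides of the saline mice, with LPS mouse 1 above all of them and LPS mice 3, 4 and 5 below (log2 fold change -0.07 ± 0.20 (SE), edgeR adjusted p = 0.772). LPS mice 1 and 4 also had the highest and the lowest Hexa level and microglia marker sum among LPS mice; that sum was 28256, 18844, 19828, 10674 and 13215 CPM in LPS mice 1 to 5. Naglu, an alpha-N-acetylglucosaminidase that acts on heparan sulphate, averaged 114 ± 22.4 CPM in LPS mice and 88.1 ± 9.62 CPM in saline mice (SD, n = 5 each), just short of a call (edgeR adjusted p = 0.0528). Asah1, the acid ceramidase, averaged 1430 ± 86.7 CPM in LPS mice and 1254 ± 152 CPM in saline mice (edgeR adjusted p = 0.237). The others were Smpd1, the acid sphingomyelinase, Ppt1, a palmitoyl-protein thioesterase, and Glb1, the lysosomal beta-galactosidase, with log2 fold changes of 0.09, 0.06 and 0.01.

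**Figure D2:**
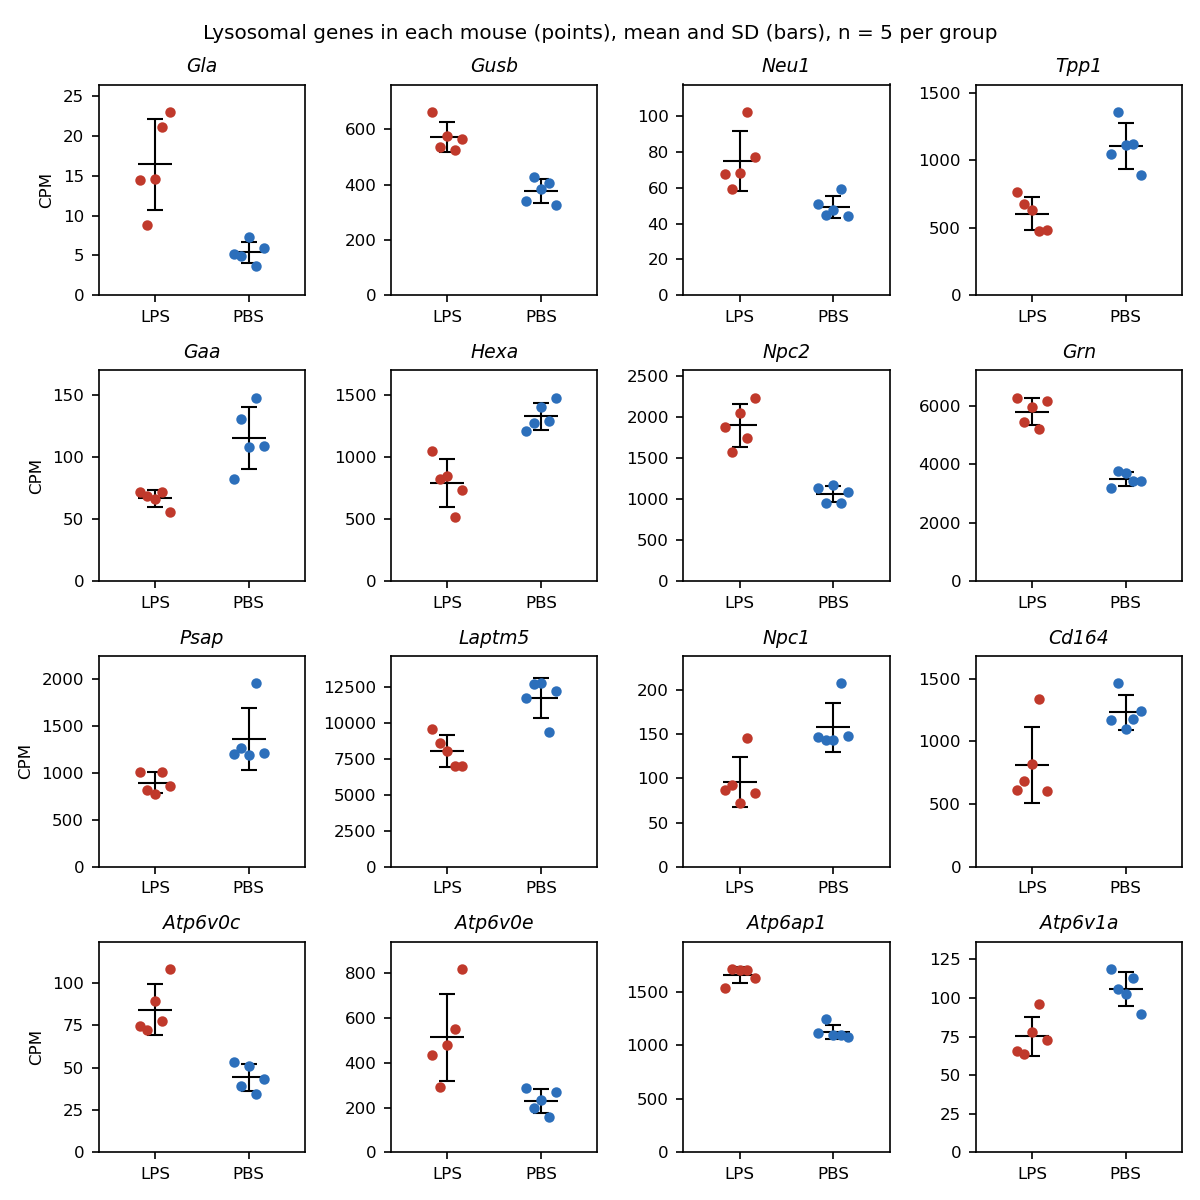
CPM (y axis, each panel on its own scale from 0) of 16 lysosomal genes in each LPS and saline (PBS) mouse, with the mean and SD over 5 mice per group. Gla, Gusb, Npc2, Grn, Atp6v0c, Atp6v0e and Atp6ap1 have every LPS mouse above every saline mouse, and Tpp1, Gaa, Hexa and Psap every LPS mouse below.

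The 3 luminal helper proteins were all called, 2 higher and 1 lower in LPS mice. Grn (14824; chr11:102430507-102436809) encodes progranulin, a secreted and lysosomal protein needed for normal hydrolase activity, whose loss causes frontotemporal dementia in people. It had 6273, 5427, 5963, 5186 and 6145 CPM in LPS mice, against 3171, 3759, 3698, 3406 and 3432 CPM in saline mice. The lowest LPS mouse stood well above the highest saline mouse (log2 fold change 0.73 ± 0.07 (SE), edgeR adjusted p = 0.000289). Npc2 (67963; chr12:84754559-84773112), which hands unesterified cholesterol in the lumen to the membrane protein Npc1, had 1875, 1568, 2046, 1744 and 2230 CPM in LPS mice, against 1130, 952, 1171, 951 and 1085 CPM in saline mice. It rose in LPS mice without overlap (log2 fold change 0.84 ± 0.11 (SE), edgeR adjusted p = 0.000244). Psap (19156; chr10:60277628-60302600), the precursor of the saposins that present sphingolipids to their hydrolases, had 1015, 819, 774, 1015 and 863 CPM in LPS mice, against 1207, 1264, 1193, 1954 and 1212 CPM in saline mice. It fell without overlap (log2 fold change -0.61 ± 0.16 (SE), edgeR adjusted p = 0.00831). Saline mouse 4 stood apart from the other saline mice, and without it the fall was smaller and still called (log2 fold change -0.45, edgeR adjusted p = 0.0193).

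Of the 7 membrane proteins 0 were called higher and 3 lower in LPS mice by edgeR, with 0 higher at an unadjusted p below 0.05 and 0 higher with DESeq2 or limma, with a median log2 fold change of -0.25, and in each of the 3 the groups overlapped. Laptm5 (16792; chr4:130912890-130936148), a lysosomal transmembrane protein of haematopoietic cells, had 9574, 8595, 8073, 6982 and 7030 CPM in LPS mice, against 11735, 12754, 12762, 9408 and 12211 CPM in saline mice. Only LPS mouse 1 passed the lowest saline mouse, mouse 4 (log2 fold change -0.55 ± 0.12 (SE), edgeR adjusted p = 0.00606). Npc1 (18145), the membrane transporter that takes cholesterol from Npc2, had 86.3, 92.5, 72.1, 146 and 83.0 CPM in LPS mice, against 147, 144, 144, 208 and 148 CPM in saline mice. LPS mouse 4 and saline mouse 4, different animals that the labels do not pair, were each the highest of their group. LPS mouse 4 lay within the saline range (log2 fold change -0.72 ± 0.20 (SE), edgeR adjusted p = 0.00674). The ratio of Npc2 to Npc1 CPM was 21.7, 16.9, 28.4, 11.96 and 26.9 in LPS mice, against 7.69, 6.63, 8.14, 4.58 and 7.34 in saline mice. The partners of cholesterol export moved in opposite directions in RNA.

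Cd164 (53599; chr10:41519500-41531042), a sialomucin of endosomes and lysosomes, had 613, 684, 820, 1336 and 605 CPM in LPS mice, against 1169, 1461, 1100, 1181 and 1240 CPM in saline mice. LPS mouse 4 exceeded 4 of the 5 saline mice, while the other LPS mice lay below all of them (log2 fold change -0.60 ± 0.22 (SE), edgeR adjusted p = 0.0275). Without LPS mouse 4 the log2 fold change was -0.85 (edgeR adjusted p = 0.000225), and the call was lost without any 1 of LPS mice 1, 2, 3 and 5 or saline mouse 2 (adjusted p of up to 0.0765). The main structural membrane proteins were not called. Lamp1 averaged 382 ± 73.7 CPM in LPS mice and 327 ± 44.2 CPM in saline mice, and Lamp2, whose A form is the receptor of chaperone-mediated autophagy, 887 ± 67.9 CPM in LPS mice and 1056 ± 120 CPM in saline mice (SD, n = 5 each). Their log2 fold changes were 0.22 and -0.25 (edgeR adjusted p = 0.249 and 0.120). Laptm4a, a relative of Laptm5, and Mcoln1, the calcium channel TRPML1, had log2 fold changes of 0.19 and 0.07 (edgeR adjusted p = 0.275 and 0.834).

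Of the 15 tested genes of the proton pump, 7 were called higher in LPS mice and 1 lower, with a median log2 fold change of 0.42. The same fit called 22.4% of all genes higher and 22.5% lower. In the shortest of 5 gene-length groups, described below, it called 44.7% of all genes higher and 5.53% lower, and 7 pump genes lie there. With the trend over gene length removed, the pump median was 0.06. The summed level of the pump genes was 5181 to 6484 CPM in LPS mice and 3567 to 4426 CPM in saline mice. That of the membrane proteins was 9727 to 12100 CPM in LPS mice and 12487 to 16341 CPM in saline mice. Laptm5 held most of the membrane protein sum, on average 8051 of 10758 CPM in LPS mice and 11774 of 15012 CPM in saline mice. Neither sum was corrected for gene length. In the V0 sector, 3 of 5 tested subunits rose. Atp6v0e (11974; chr17:26676396-26699647), a small V0 subunit, had 433, 292, 478, 552 and 818 CPM in LPS mice, against 289, 197, 235, 158 and 269 CPM in saline mice. The lowest LPS mouse, mouse 2, lay just above the highest saline mouse, mouse 1 (log2 fold change 1.17 ± 0.29 (SE), edgeR adjusted p = 0.00146). Atp6v0b (114143; chr4:117884330-117887333), a proteolipid of the rotating ring, had 1261, 1032, 1106, 936 and 1458 CPM in LPS mice, against 920, 573, 654, 534 and 845 CPM in saline mice. The groups were separated by a narrow gap (log2 fold change 0.72 ± 0.19 (SE), edgeR adjusted p = 0.00525). An antisense gene, Gm12841, shares 11.8% of the Atp6v0b exon bases, and counts of the pair cannot be told apart without strand.

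Atp6v0c (11984; chr17:24163865-24169678), the other ring proteolipid, had 74.6, 72.1, 89.1, 77.3 and 108 CPM in LPS mice, against 53.4, 39.2, 50.9, 34.3 and 43.5 CPM in saline mice. It rose without overlap (log2 fold change 0.93 ± 0.16 (SE), edgeR adjusted p = 0.000366). This count is uncertain, because the pseudogene Atp6v0c-ps2 held more counts than the gene itself, with 154 CPM on average in LPS mice and 80.0 CPM in saline mice. The sum of Atp6v0c and both listed pseudogene copies, which are counted as separate genes, averaged 247 CPM in LPS mice and 128 CPM in saline mice. This sum was called higher. Atp6v0d1, the d subunit that couples the sectors, had 103, 105, 109, 126 and 135 CPM in LPS mice, against 95.8, 75.0, 96.1, 71.7 and 116 CPM in saline mice. Only saline mouse 5 overlapped the LPS mice, and the difference was not called (log2 fold change 0.35 ± 0.15 (SE), edgeR adjusted p = 0.0780), though it was without that mouse (adjusted p = 0.0306). Its isoform Atp6v0d2, known from osteoclasts and some macrophages, was too low to test. It had 3 counts in LPS mouse 1, 1 in LPS mouse 3 and 0 in the other LPS mice, against 0 of 67419973 counts in saline mice, which allows up to 0.0445 CPM for counting error alone. Atp6v0a1, the large membrane subunit through which protons pass, averaged 145 ± 22.4 CPM in LPS mice and 165 ± 28.8 CPM in saline mice and was not called (edgeR adjusted p = 0.321).

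In the V1 sector 2 of 8 subunits rose and 1 fell. Atp6v1a (11964; chr16:44085402-44139702), the subunit that hydrolyses ATP, had 65.5, 63.8, 77.7, 95.8 and 72.5 CPM in LPS mice, against 119, 106, 102, 113 and 89.3 CPM in saline mice. It was the single pump gene called lower, and its groups overlapped through LPS mouse 4 and saline mouse 5 (log2 fold change -0.49 ± 0.13 (SE), edgeR adjusted p = 0.0114). Its partner Atp6v1b2, the B subunit of the catalytic head, averaged 123 ± 12.6 CPM in LPS mice and 108 ± 9.91 CPM in saline mice and was not called (log2 fold change 0.20, edgeR adjusted p = 0.208). Atp6v1e1, part of the peripheral stalk, had 259, 205, 257, 247 and 329 CPM in LPS mice, against 206, 161, 187, 128 and 208 CPM in saline mice. It was called higher (log2 fold change 0.54 ± 0.17 (SE), edgeR adjusted p = 0.0153), with overlap through LPS mouse 2. Atp6v1h, a regulatory subunit of V1, averaged 149 ± 9.84 CPM in LPS mice and 117 ± 9.61 CPM in saline mice (SD, n = 5 each) and was called higher without overlap (log2 fold change 0.36 ± 0.07 (SE), edgeR adjusted p = 0.0230). Leaving out saline mouse 1 or saline mouse 3 ended the call. The remaining subunits Atp6v1c1, Atp6v1d, Atp6v1f and Atp6v1g1 had log2 fold changes of -0.08 to 0.47 and were not called.

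Both accessory proteins rose without overlap between the groups. Atp6ap1 (54411; chrX:74297097-74304721), which helps to assemble V0, had 1535, 1710, 1700, 1705 and 1632 CPM in LPS mice, against 1115, 1241, 1094, 1092 and 1078 CPM in saline mice. The groups were far apart for their spread (log2 fold change 0.56 ± 0.05 (SE), edgeR adjusted p = 0.00146). Atp6ap2 (70495; chrX:12587759-12617051), the prorenin receptor, had 703.5, 703.4, 701, 917 and 761 CPM in LPS mice, against 521, 542, 527, 472 and 463 CPM in saline mice. Every LPS mouse lay above every saline mouse (log2 fold change 0.58 ± 0.09 (SE), edgeR adjusted p = 0.00211), also without the high LPS mouse 4 (log2 fold change 0.51, edgeR adjusted p = 0.00302).

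**Figure D3:**
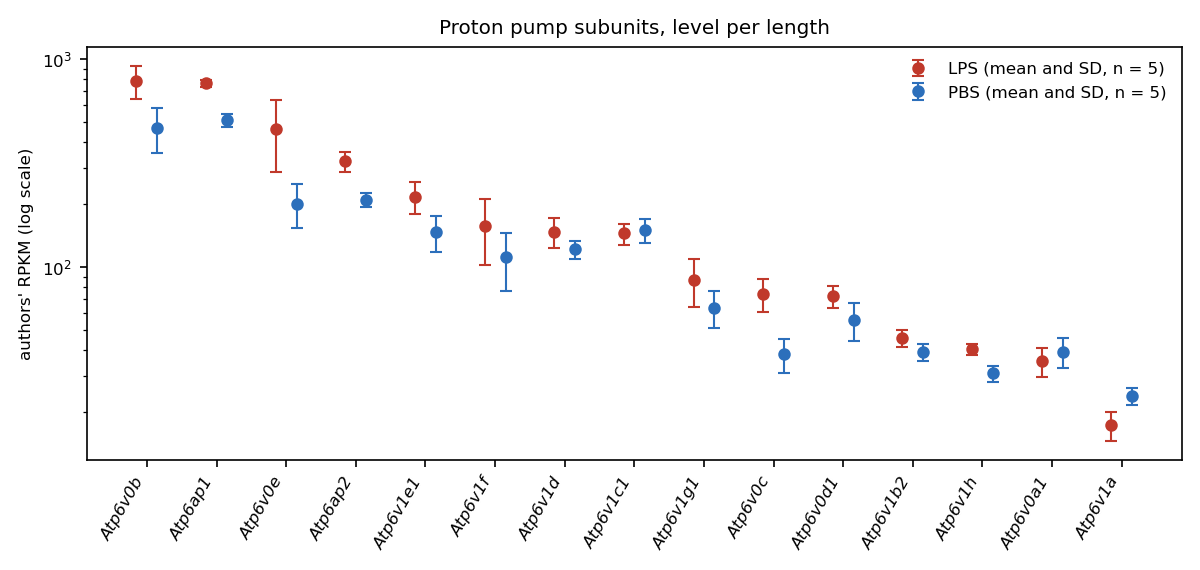
The authors' RPKM (log axis), a level per length, of the 15 tested proton pump genes in LPS and saline (PBS) mice, with points for the mean and bars for the SD over 5 mice per group. Atp6v0b and Atp6ap1 lead in both groups, and Atp6v1a has the lowest level in both.

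Levels per length spanned a wide range, and the top 3 members were the same genes in both groups. In LPS mice the highest RPKM were those of Lgmn (3603 ± 1138), Laptm5 (3397 ± 485) and Grn (2515 ± 221), against 3695 ± 343, 4869 ± 649 and 1483 ± 119 RPKM in saline mice (SD, n = 5 each). Lgmn and Laptm5 did not differ beyond their spread in LPS mice. Within the pump, Atp6v0b had 785 ± 145 RPKM in LPS mice and 468 ± 114 RPKM in saline mice, and Atp6ap1 had 765 ± 32.2 RPKM in LPS mice and 508 ± 34.3 RPKM in saline mice. In LPS mice the mean of each lay within the SD of the other. In saline mice the mean of Atp6ap1 lay within the SD of Atp6v0b, but that of Atp6v0b lay below the SD of Atp6ap1. Atp6v1a had 17.3 ± 2.75 RPKM in LPS mice and 23.9 ± 2.28 RPKM in saline mice, although the complex holds several copies of this subunit.

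Fold changes ran with gene length across the whole series, and 12 of the 15 tested pump genes are shorter than the median gene. Lengths are known only relative to one another, from the ratio of counts to RPKM. Genes in the shortest of 5 equal length groups had a median log2 fold change of 0.70, with 44.7% called higher and 5.53% lower. Those in the longest had a median of -0.46, with 6.25% called higher and 44.6% lower. The shortest group took 23.9%, 20.2%, 23.9%, 20.3% and 28.9% of counts in LPS mice, against 16.1%, 12.7%, 15.4%, 12.4% and 17.5% in saline mice, with no overlap. It held 7 members, which were pump subunits without exception, and 4 of them were called higher and 0 lower. In the second group 34.4% of genes were called higher and 11.0% lower, with 3 and 2 of its 15 members. In the third, 18.9% were called higher and 21.8% lower, with 4 and 4 of 10 members, and in the fourth 10.8% higher and 32.9% lower, with 1 and 4 of 7 members. With the length trend removed from each library, the pump had 5 genes higher and 0 lower and a median of 0.06, while all genes had 20.1% higher and 18.4% lower. Atp6v0b (log2 fold change 0.29, edgeR adjusted p = 0.0850), Atp6v1e1 (0.03, 0.838) and Atp6v1a (-0.23, 0.132) lost their calls.

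Over all members, 10 of 39 were called higher and 8 lower with the trend removed, and the median was -0.02. The same fit called 20.1% of all genes higher and 18.4% lower. Atp6v0e, Atp6v0c, Atp6ap1, Atp6ap2 and Atp6v1h remained higher, with log2 fold changes of 0.62, 0.39, 0.36, 0.43 and 0.54. Among luminal proteins Gla (1.65), Npc2 (0.93), Neu1 (0.80), Grn (0.57) and Gusb (0.55) remained higher. Hexa, which is shorter than the median gene, fell further (log2 fold change -1.01, edgeR adjusted p = 0.000172). Tpp1, Psap, Gaa and Lipa remained lower at -0.69, -0.65, -0.60 and -0.45. With Hexa, hydrolases and luminal helpers thus had 5 genes higher and 5 lower. The membrane proteins Laptm5, Cd164 and Npc1 remained lower at -0.69, -0.62 and -0.39.

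**Figure D4:**
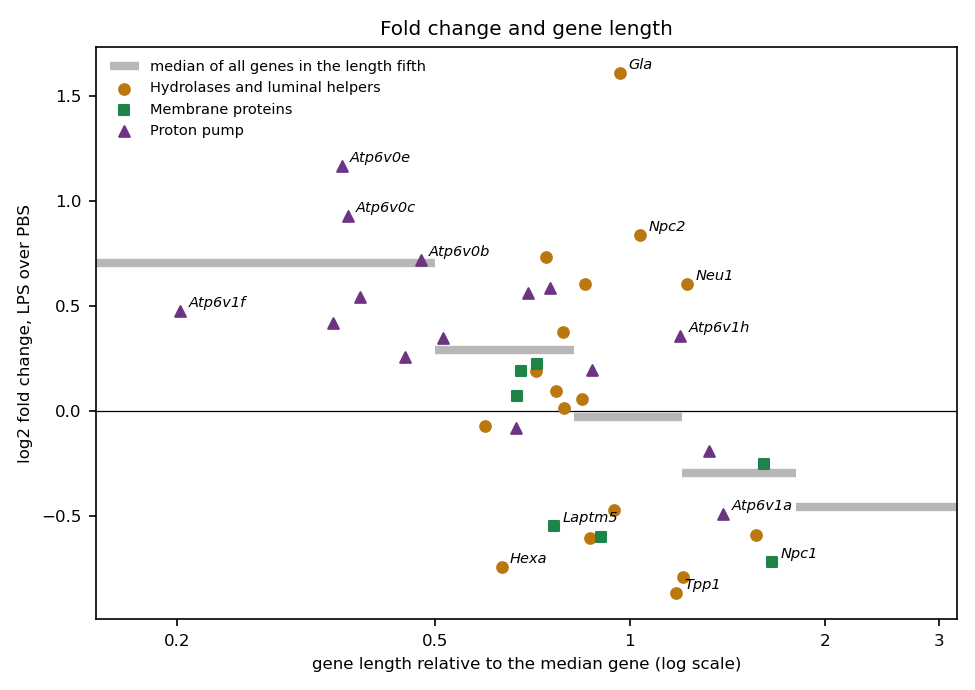
Log2 fold change of LPS over saline (y axis) against gene length relative to the median gene (x axis, log scale) for the 39 tested members, with grey bars for the median of all genes in each of 5 length groups. The bars step down from 0.70 to -0.46, the shortest group holds pump subunits alone among the members, and Gla, Npc2, Hexa and Tpp1 lie far from their bar.

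The other lysosomal genes, 85 from lists of the same pathway, gave 22 of 77 tested genes called higher and 15 lower. These shares, 28.6% and 19.5%, lay near the 22.4% and 22.5% of all genes. Of 27 other hydrolases and luminal proteins 11 rose and 6 fell. Ifi30, a thiol reductase induced by interferon gamma, averaged 744 ± 244 CPM in LPS mice and 69.2 ± 8.67 CPM in saline mice (log2 fold change 3.42 ± 0.22 (SE), edgeR adjusted p = 7.62e-08). Galns, which removes sulphate from keratan sulphate, averaged 95.2 ± 10.4 CPM in LPS mice and 35.8 ± 4.30 CPM in saline mice (log2 fold change 1.41, edgeR adjusted p = 2.25e-06). In both genes every LPS mouse lay above every saline mouse.

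Of 21 other membrane proteins, 5 rose and 4 fell. Cd63, a tetraspanin of late endosomes, averaged 871 ± 258 CPM in LPS mice and 143 ± 20.3 CPM in saline mice (log2 fold change 2.61 ± 0.20 (SE), edgeR adjusted p = 3.49e-07). Tpcn2, a lysosomal cation channel, averaged 43.7 ± 26.1 CPM in LPS mice and 14.5 ± 4.07 CPM in saline mice, with LPS mouse 4 at 89.5 CPM (log2 fold change 1.59, edgeR adjusted p = 0.00102). Hgsnat, an acetyltransferase of heparan sulphate breakdown, averaged 51.2 ± 14.7 CPM in LPS mice and 26.5 ± 4.50 CPM in saline mice (log2 fold change 0.95, edgeR adjusted p = 0.00128). Cd68, a macrophage relative of the Lamp proteins, averaged 3382 ± 510 CPM in LPS mice and 2397 ± 266 CPM in saline mice (log2 fold change 0.50, edgeR adjusted p = 0.0117), and once the length trend was taken out its value was -0.011 (edgeR adjusted p = 0.950).

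The 4 other tested pump subunits gave 0 calls in edgeR and 0 at an unadjusted p below 0.05, among them Tcirg1, the large membrane subunit of osteoclasts and immune cells, with 292 ± 78.2 CPM in LPS mice and 313 ± 71.3 CPM in saline mice (edgeR adjusted p = 0.689). Of 25 biogenesis and sorting genes 6 rose and 5 fell. Gnptg, a subunit of the enzyme that tags hydrolases with mannose 6-phosphate, averaged 112 ± 14.3 CPM in LPS mice and 59.6 ± 3.36 CPM in saline mice (log2 fold change 0.90, edgeR adjusted p = 6.68e-05). Vps41, which tethers vesicles to lysosomes, averaged 69.3 ± 12.8 CPM in LPS mice and 140 ± 18.4 CPM in saline mice (log2 fold change -1.02, edgeR adjusted p = 0.000144). Of the factors that bind the CLEAR motif shown above, Mitf and Tfe3 fell and Tfeb was not called. Mitf averaged 21.0 ± 1.32 CPM in LPS mice and 35.7 ± 6.98 CPM in saline mice (edgeR adjusted p = 0.00129, and 0.0994 with the length trend removed). Tfe3 averaged 69.0 ± 6.46 CPM in LPS mice and 95.4 ± 4.09 CPM in saline mice (edgeR adjusted p = 0.00487), and Tfeb 3.81 ± 1.53 CPM in LPS mice and 3.65 ± 0.870 CPM in saline mice (edgeR adjusted p = 0.888). Their relative Tfec, named after its values were seen, had 1.09, 3.07, 2.79, 2.85 and 4.31 CPM in LPS mice, against 1.25, 0, 0.889, 0.125 and 0.712 CPM in saline mice. It was low in every mouse, LPS mouse 1 lay below saline mouse 1, and it was called higher (log2 fold change 2.22 ± 0.69 (SE), edgeR adjusted p = 0.0126).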

How the data were processed

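The authors deposited raw counts per gene and RPKM values, which equal the counts times a factor per library and gene. The submitters' processing notes name featureCounts and 2 build names, mm10 and GRCm38. The sources used here give neither the aligner nor the annotation, nor whether counting used strand. The fit of the counts was made in R 4.3.3 with edgeR 4.0.16 (TMM normalisation, filterByExpr, quasi-likelihood F test, Benjamini-Hochberg adjustment at 0.05 over 13793 genes), with no covariate. CPM use the TMM-scaled totals of the tested genes. Standard errors come from log2 CPM with a prior count of 2 over 5 and 5 mice, and cover the spread between single mice. The deposited RPKM served for levels per length and relative gene length. Coordinates and promoters are RefSeq GRCm38.p6, and exon overlaps GENCODE. A row without a gene name and with no counts was left out. The second RPKM table was not used. Replicate libraries differed by more than sampling noise (chi-square per degree of freedom of at least 14.6). That value was 27.4 to 124 in pairs of LPS mice and 14.6 to 48.8 in pairs of saline mice. Pairs with LPS mouse 4 had 79.8 to 124, and LPS mouse 5 had 82.0 and 83.1 with LPS mice 1 and 2.

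The members and lists were chosen with earlier results of these data known. All 40 members could be named. Values per mouse went to called members with the smallest adjusted p, up to 4 per direction and kind, and to those with the highest RPKM. Of each other list the 3 called genes with the smallest adjusted p were named, and Tcirg1, Cd68, Tfeb, Tfe3 and Mitf in any case; some genes under this rule are not reported here. Alternatives were other scalings and filters, DESeq2 1.42.0, limma 3.58.1 (voom, and log2(RPKM + 1) or log2(RPKM + 0.1)), mouse-number ranges as a term, protein-coding genes, the length trend removed, each mouse left out and, added after seeing the data, Atp6v0c summed with its copies. The tests were also run on simulated counts. Amplified reads without molecular identifiers mean that counting limits cover counting error only.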

Additional observations from a re-analysis of the deposited data

Results flagged for a closer look

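In 9 of 105 sets of 5 mice checked, 1 mouse stood apart from the rest of its group by Dixon's criterion, where chance gives about 1 in 20, or 5.2. LPS mouse 4 was high for Npc1 (146 CPM, others 72.1 to 92.5), Atp6ap2 (917, others 701 to 761), Tpcn2 (89.5, others 26.5 to 39.9) and Tcirg1 (431, others 238 to 269). LPS mouse 2 was low for Galns (77.1 CPM, others 95.6 to 102). Saline mouse 4 was high for Psap (1954 CPM, others 1193 to 1264), Npc1 (208, others 144 to 148) and Hgsnat (34.4, others 23.4 to 25.8). Saline mouse 2 was high for Atp6ap1 (1241 CPM, others 1078 to 1115). The calls of Npc1, Psap, Atp6ap1, Atp6ap2, Galns, Tpcn2 and Hgsnat held in each fit that left out 1 mouse.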

How the results depend on the processing

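Of the 22 called members, 14 were called in each of 23 other settings, 19 in each fit without 1 mouse, and 0 changed direction. Gene by gene, the setting added after seeing the data was read for Atp6v0c alone, which kept its call. Calls ended in at least 1 setting for Lipa, Man2b1, Laptm5 (adjusted p = 0.0649 for log2(RPKM + 1) with no filter), Cd164, Atp6v0b, Atp6v1a, Atp6v1e1 and Atp6v1h, and the cause was not tested. Naglu was called in 9 settings, Lamp2, Atp6v0d1 and Atp6v1g1 in 1 or 2. Members higher in LPS mice numbered 10 to 13 over other settings and 11 to 14 with a mouse left out, members lower 8 to 11 and 8 to 10, and the pump genes higher 5 to 7 and 6 to 9. Without LPS mouse 4, 12 members were higher and 10 lower. Over all genes, 3607 were then higher and 3559 lower, against 3093 and 3110 with all mice. With the gene-length trend removed, 0 pump genes were lower and the log2 fold change of Cd68 turned to -0.011 (edgeR adjusted p = 0.950). No paired analysis was possible because the labels pair no mice and replicate numbers follow the order of deposit. Atp6v0d2 alone among the members had too few counts to test.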
